A study of Mus musculus with 6 samples.

Results

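The sterol and fatty acid synthesis genes described here are 36 named genes, taken by symbol from the read count tables, which list 24411 gene symbols in each library. They cover the mevalonate pathway (8 genes), the steps from squalene to cholesterol (10), the SREBP regulators (5), fatty acid synthesis (8) and the transport, export and turnover of cholesterol (5). All 36 were found and all 36 had enough reads to be tested. RNA was sequenced in bulk from mouse tissue at postnatal day 18, with 3 libraries from animals carrying a deletion of a large enhancer of Atoh7 (enhancer KO) and 3 from wild-type animals (WT). The labels name cerebellum in the protocol and retina in the tissue field, and give no strain, sex, litter or position of the deletion. Nothing in the labels says whether the replicates are separate animals, so p-values measure the spread between these libraries.

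Cholesterol is made from acetyl-CoA through mevalonate, farnesyl diphosphate and squalene, and lanosterol is then trimmed and reduced to cholesterol. The brain makes nearly all of its own cholesterol because plasma lipoproteins do not cross the blood-brain barrier, and myelinating oligodendrocytes are heavy users of both cholesterol and fatty acids. SREBP-2 (Srebf2) drives the cholesterol genes and SREBP-1 (Srebf1) the fatty acid genes. Scap escorts these factors out of the endoplasmic reticulum, and Insig proteins hold Scap there when sterol is plentiful. Astrocytes release cholesterol on apolipoprotein E through ABC transporters, and neurons remove it by hydroxylation with Cyp46a1.

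The promoters of these genes were read from RefSeq (GRCm38.p6), 250 bases before each annotated start, for the 28 of 36 genes found in the table. The motifs searched, on both strands, were a sterol regulatory element (TCACNCCAC), the CCAAT box bound by NF-Y (CCAAT) and the GC box bound by Sp1 (GGGCGG). A gene was counted when any of its windows held the motif. CCAAT was present for 14 of 15 cholesterol synthesis genes (93.3%), against 6 of the 13 other genes of the set (46.2%) and 37.5% of the 27025 genes in the table. The GC box was present for 14 of 15 cholesterol synthesis genes (93.3%), against 9 of 13 (69.2%) and 35.4%. The RefSeq start of Hmgcs1 lies outside the GENCODE transcripts of the gene, just upstream. Only Hmgcs1 held the sterol regulatory element in these letters, while 1.22% of all genes did. The 27025 genes compared were not limited to those with enough reads to be tested, as all members were. These matches are descriptions of the letters in the windows and do not show binding. The windows below are those of Hmgcs1 (chr13:119690101-119690350, plus strand), the gene of the synthesis pathway with the highest level, of Lss (chr10:76531355-76531604, plus strand) and Fasn (chr11:120824548-120824797, minus strand), which were lower in enhancer KO, and of Insig2 (chr1:121332590-121332839, minus strand), Fads2 (chr19:10101504-10101753, minus strand) and Elovl6 (chr3:129532136-129532385, plus strand), which were higher. Each is written 5′ to 3′ along the gene with the 3 motifs in capitals.
Hmgcs1: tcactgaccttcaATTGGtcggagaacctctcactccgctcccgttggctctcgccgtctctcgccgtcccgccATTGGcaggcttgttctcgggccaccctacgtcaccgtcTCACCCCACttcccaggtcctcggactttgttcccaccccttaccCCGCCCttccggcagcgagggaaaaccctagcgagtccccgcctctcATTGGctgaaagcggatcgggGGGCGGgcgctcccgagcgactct
Lss: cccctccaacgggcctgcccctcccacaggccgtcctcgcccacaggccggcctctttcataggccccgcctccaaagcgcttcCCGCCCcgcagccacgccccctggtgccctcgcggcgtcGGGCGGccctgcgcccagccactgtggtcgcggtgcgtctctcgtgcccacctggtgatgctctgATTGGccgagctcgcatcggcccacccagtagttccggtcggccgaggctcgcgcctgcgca
Insig2: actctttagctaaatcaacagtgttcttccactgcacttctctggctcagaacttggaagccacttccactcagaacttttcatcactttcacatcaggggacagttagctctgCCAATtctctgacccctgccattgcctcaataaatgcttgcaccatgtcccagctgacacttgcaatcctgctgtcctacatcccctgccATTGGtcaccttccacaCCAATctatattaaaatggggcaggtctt
Fasn: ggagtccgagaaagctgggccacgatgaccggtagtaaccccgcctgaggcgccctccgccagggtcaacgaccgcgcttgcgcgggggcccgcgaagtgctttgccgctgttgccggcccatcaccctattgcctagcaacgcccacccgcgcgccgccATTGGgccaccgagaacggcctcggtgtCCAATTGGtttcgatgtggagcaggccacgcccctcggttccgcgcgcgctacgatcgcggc
Fads2: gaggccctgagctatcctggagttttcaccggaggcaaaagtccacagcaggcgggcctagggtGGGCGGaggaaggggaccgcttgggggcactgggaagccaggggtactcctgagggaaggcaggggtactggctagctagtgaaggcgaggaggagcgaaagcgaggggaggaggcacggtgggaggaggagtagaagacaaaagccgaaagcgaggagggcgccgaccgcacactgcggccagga
Elovl6: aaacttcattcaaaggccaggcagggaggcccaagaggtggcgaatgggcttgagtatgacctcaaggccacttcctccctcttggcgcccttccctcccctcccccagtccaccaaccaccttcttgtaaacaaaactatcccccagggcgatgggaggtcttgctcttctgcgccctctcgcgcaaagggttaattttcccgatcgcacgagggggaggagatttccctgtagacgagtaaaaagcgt
The Hmgcs1 window holds its sterol regulatory element between CCAAT boxes that are all in the reverse direction (ATTGG). Fasn has 3 CCAAT matches, of which a forward and a reverse match overlap, and Insig2 has 3 in the window shown, the farthest upstream of its 3. Neither Fads2 nor Elovl6 has a CCAAT match, and Elovl6 has no match to any of the 3 motifs. Of the genes called lower, Mvd, Lss and Fasn all had a CCAAT match. Of those called higher, Insig2 had one, Acat2, Elovl6, Fads2 and Apoe had none, and Scd1 and Fads1 had no window. Hmgcs1, which did not pass, had CCAAT boxes, as did 20 of the 28 genes with a window. A link between the motif and the direction of change was not tested.

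Reads in genes numbered 36849747 to 40858310 in the enhancer KO libraries and 22812075 to 33076111 in the WT libraries. The members had 415 to 124019 reads per library. Atoh7 itself was read at 0.766 ± 0.0835 CPM in enhancer KO and 2.04 ± 0.0945 CPM in WT (SD, n = 3 each; CPM is the read count relative to a library size scaled by TMM), which is -1.41 ± 0.205 SE on the log2 scale (adjusted p = 0.000353 by edgeR). Reads outside annotated exons were 17.4% ± 0.735 of all reads in enhancer KO and 32.4% ± 1.56 in WT (SD, n = 3 each; exact permutation test, p = 0.1, the lowest reachable with 3 libraries a group). Reads aligned to several places averaged 10.8% in enhancer KO and 7.60% in WT, and the libraries of the groups did not overlap. Malat1 had a log2 fold change of -1.31 (edgeR adjusted p = 0.000148). These library-wide differences run along genotype, and their part in the values of the 36 genes was not tested. Xist was read 34185 times in WT replicate 1, which had no Ddx3y reads, while the other 5 libraries had at most 50 Xist and at least 1916 Ddx3y reads. By these reads WT replicate 1 was female and the other 5 libraries male, so only the WT group was mixed in sex. WT replicate 2 stood apart by its Rn45s ribosomal RNA, 12.9% of gene reads against 1.51% to 3.02% in the others. The Purkinje and granule neuron markers were abundant, summing to 6655 and 1880 CPM in enhancer KO and 5172 and 3167 CPM in WT, while 10 photoreceptor genes together reached 11.8 CPM in enhancer KO and 8.68 CPM in WT, with Crx at 0 reads in 4 of the 6 libraries. In bulk tissue, fewer cells of a type and less RNA per cell cannot be told apart, and this holds for every value below.

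Most of the 36 genes differed little between the groups. At an edgeR adjusted p under 0.05, 7 were higher and 3 lower in enhancer KO, that is 19.4% and 8.33%, against 13.4% higher and 17.9% lower of all 15846 genes tested (31.3% called in either direction). The higher genes were Acat2 at chr17:12942890-12960747, Insig2 at chr1:121304353-121332589, Elovl6 at chr3:129532355-129638495, Scd1 at chr19:44394455-44407879, Fads1 at chr19:10182888-10196877, Fads2 at chr19:10062765-10101746 and Apoe at chr7:19696109-19699188 (GRCm38, whole genes in GENCODE M21). The lower genes were Mvd at chr8:122433601-122443422, Lss at chr10:76531588-76557138 and Fasn at chr11:120805846-120824547. The log2 fold change was within 0.1 of zero for 21 genes, and its median was 0.026 for the set and 0.00059 for all genes tested. The libraries of the groups did not overlap for 11 genes above and 9 below, against 20.5% above and 24.3% below of all genes tested (44.8% in either direction). The estimated changes ran from -13.3% for Fasn to 24.5% for Scd1. With a minimum fold of 1.2, 0 members passed in edgeR, and 0 did so at an unadjusted p under 0.05. The estimates for Scd1 and Insig2 (23.5%) were above that fold, so this test does not show that every change was below it. DESeq2 and limma-voom, without a fold minimum, called 9 and 10 members. Replicates lay close together, with a median coefficient of variation of 3.32% in enhancer KO and 3.40% in WT over the 36 genes. The plot of log2 fold changes shows the calls concentrated in fatty acid synthesis, where 5 of 8 genes passed, against 3 of 18 cholesterol synthesis genes.

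**Figure D1:**
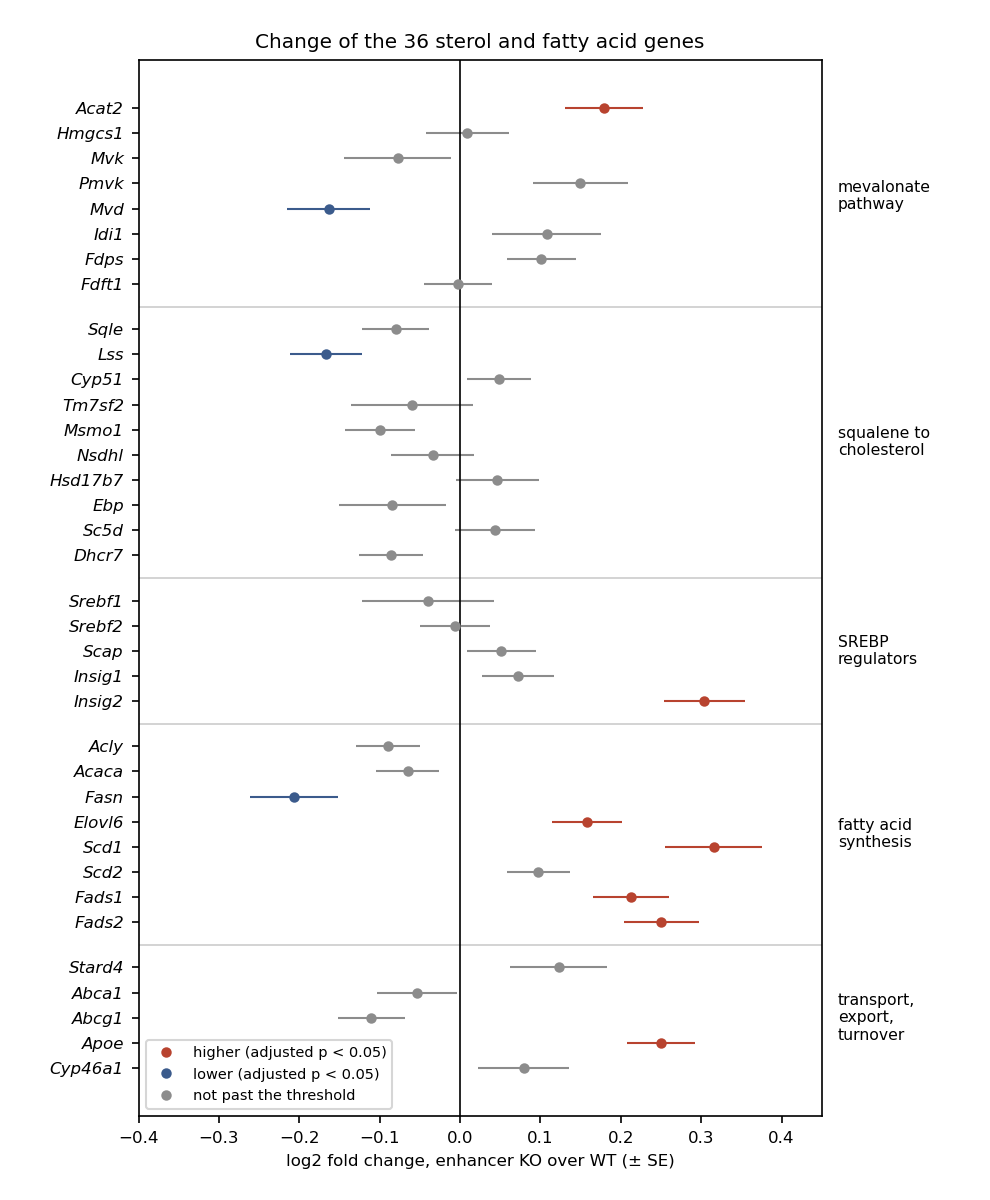
Log2 fold change of each of the 36 genes, enhancer KO over WT, on the horizontal axis with its SE, grouped by role down the page (3 libraries in each group). Values run from -0.21 for Fasn to 0.32 for Scd1, and the cholesterol synthesis genes stay within 0.18 of zero.

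The mevalonate pathway makes the isoprenoid units of cholesterol. Of its 8 genes 2 passed, in opposite directions (25%, against 31.3% of all genes tested). The summed level of the 8 genes was 1087, 1126 and 1092 CPM in the enhancer KO libraries and 1064, 1143 and 1049 CPM in the WT libraries. The groups overlapped. Acat2, the cytosolic thiolase that joins the starting acetyl-CoA units, had 59.8, 58.4 and 62.7 CPM in enhancer KO and 55.3, 51.8 and 52.6 CPM in WT. Every enhancer KO library lay above every WT library, and Acat2 rose with a change of 0.18 ± 0.0483 SE on the log2 scale (adjusted p = 0.0144 by edgeR). Mvd, the decarboxylase that yields isopentenyl diphosphate, had 30.5, 31.9 and 30.7 CPM in enhancer KO and 34.5, 34.5 and 35.2 CPM in WT. Here the enhancer KO libraries were all below the WT libraries, and Mvd fell with a change of -0.16 ± 0.0517 SE on the log2 scale (adjusted p = 0.0308 by edgeR). Each call ended when certain single libraries were left out. Leaving out WT replicate 3 (edgeR adjusted p = 0.0558) or enhancer KO replicate 3 (0.053) ended the call of Acat2, within a range of 0.00918 to 0.0558 over the 6 libraries left out. That of Mvd ended on leaving out WT replicate 2, WT replicate 3 or any 1 enhancer KO library, at an adjusted p of 0.0583 to 0.130, and held without WT replicate 1 (0.0445). The Mvd call also ended with DESeq2 (0.101), unstranded counts (0.0533), no filter on low counts (0.0553) and library size alone (0.421), within 0.0259 to 1 over all 17 alternatives, of which 12 ended it.

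The other mevalonate genes did not pass. Hmgcs1, the synthase of HMG-CoA and the pathway member with the most reads, had 749.8, 782.7 and 749.9 CPM in enhancer KO and 735.4, 815.3 and 717.7 CPM in WT. The WT libraries spread on both sides of the enhancer KO libraries, and the 95% interval of the change ran from -6.94% to 8.81%. Fdft1, squalene synthase, was at 86.2 ± 1.74 CPM in enhancer KO and 86.4 ± 2.71 CPM in WT (SD, n = 3 each), with an interval of -6.40% to 6.41%. Pmvk, phosphomevalonate kinase, and Fdps, which makes farnesyl diphosphate, had every enhancer KO library above every WT library, with differences of 0.15 ± 0.0591 and 0.10 ± 0.0432 SE on the log2 scale (adjusted p = 0.0746 and 0.0973 by edgeR). With the unstranded counts both were called higher (edgeR adjusted p = 0.0429 and 0.0485). The kinase gene Mvk and the isomerase gene Idi1 overlapped between the groups, at log2 fold changes of -0.08 and 0.11.

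Of the 10 genes that carry squalene to cholesterol, 1 passed (10%, against 31.3% of all genes tested). Lss, the cyclase that forms lanosterol, had 92.2, 98.3 and 89.8 CPM in enhancer KO and 105.5, 106.5 and 102.8 CPM in WT. No enhancer KO library reached the lowest WT library, and Lss fell with a change of -0.17 ± 0.0449 SE on the log2 scale (adjusted p = 0.0142 by edgeR). Its call ended on leaving out WT replicate 2 (0.0534) or enhancer KO replicate 1 (0.0597), within a range of 0.00963 to 0.0597 over the libraries left out. With library size alone its log2 fold change was -0.10, with the median of all genes moved to 0.063. After subtracting each library's smooth trend over GC content, spliced length and intron length it was -0.064, with that median at 0.039. Neither passed.

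Squalene epoxidase (Sqle), which precedes Lss and is a rate-limiting enzyme of the pathway, had 126.3, 130.7 and 129.1 CPM in enhancer KO and 136.7, 140.7 and 131.1 CPM in WT. Its libraries did not overlap, but the difference did not pass (-0.08 ± 0.0417 SE on the log2 scale; adjusted p = 0.170 by edgeR). Msmo1, a methyl sterol oxidase, and Dhcr7, a reductase of the last steps, also had every enhancer KO library below every WT library, with differences of -0.10 ± 0.0435 and -0.09 ± 0.0400 SE on the log2 scale (adjusted p = 0.103 and 0.125 by edgeR). Non-overlap alone was common in these libraries, as the 44.8% over all genes shows. The lanosterol demethylase Cyp51, the sterol reductase Tm7sf2, the demethylation enzymes Nsdhl and Hsd17b7, the isomerase Ebp and the desaturase Sc5d overlapped between the groups, with log2 fold changes from -0.08 for Ebp to 0.05 for Cyp51. Nsdhl and Ebp are on the X chromosome, and WT replicate 1, the library with Xist reads, had 35.2 and 31.1 CPM of them, against 34.4 and 35.2 CPM of Nsdhl and 32.9 and 36.5 CPM of Ebp in the other WT libraries. The summed level of the 18 cholesterol synthesis genes was 1926, 2006 and 1946 CPM in the enhancer KO libraries and 1935, 2056 and 1909 CPM in the WT libraries. That is a mean of 1959 ± 41.8 CPM in enhancer KO and 1967 ± 78.8 CPM in WT (SD, n = 3 each), a sum in which Hmgcs1 weighs most. Taken gene by gene, the 95% intervals of these 18 genes reach no further than -17.4% on the low side and 21.8% on the high side.

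Among the regulators of the pathway, Insig2 was higher and the other 4 genes did not pass. That is 20% called, against 31.3% of all genes tested. Insig2, which with Insig1 holds Scap in the endoplasmic reticulum, had 44.1, 47.2 and 47.4 CPM in enhancer KO and 37.5, 37.6 and 37.3 CPM in WT. The WT libraries were nearly identical and every enhancer KO library lay above them. Insig2 rose by 23.5% (95% interval 14.5% to 33.2%; 0.30 ± 0.0501 SE on the log2 scale; adjusted p = 0.000815 by edgeR), and the call held without each library in turn. Insig1, itself a target of SREBP, was at 121.9, 127.4 and 134.7 CPM in enhancer KO and 122.7, 123.3 and 119.4 CPM in WT. These overlap, and the difference of 0.07 ± 0.0453 SE on the log2 scale did not pass (edgeR adjusted p = 0.257).

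Srebf2 was at 229 ± 9.32 CPM in enhancer KO and 229.9 ± 7.65 CPM in WT (SD, n = 3 each), with a 95% interval of the change from -6.77% to 6.34%. For Srebf1 the interval was wider, from -14.5% to 10.7%, as its libraries ranged from 61.8 to 73.0 CPM in enhancer KO and from 60.9 to 74.0 CPM in WT. Scap differed by 0.05 ± 0.0427 SE on the log2 scale, and was called higher only after subtraction of these trends (0.16, edgeR adjusted p = 0.00816; 0.00816 to 1 over all alternatives).

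Fatty acid synthesis was the group in which most genes passed, with 4 higher and 1 lower of 8 (62.5%, against 31.3% of all genes tested). Of the 5 enzymes that lengthen and desaturate fatty acids 4 rose, and of the 3 that build the chain from citrate and acetyl-CoA 1 fell, Fasn. This split of the group was made with the values known. The median log2 fold change of the 8 genes was 0.13, and all 8 had libraries that did not overlap between the groups, as did 44.8% of all genes tested. Scd1, a stearoyl-CoA desaturase that makes monounsaturated fatty acids, had 480.8, 504.5 and 427.0 CPM in enhancer KO and 393.5, 368.0 and 373.3 CPM in WT. The lowest enhancer KO library, replicate 3, was still above the highest WT library. Scd1 rose by 24.5% (95% interval 13.6% to 36.3%; 0.32 ± 0.0601 SE on the log2 scale; adjusted p = 0.00211 by edgeR). Scd2, its neighbour on chromosome 19 with 87591 bases between them, is the abundant brain desaturase. It had 3185, 3144 and 2974 CPM in enhancer KO and 2948, 2917 and 2829.6 CPM in WT, again without overlap, and did not pass (0.10 ± 0.0388 SE on the log2 scale; adjusted p = 0.0761 by edgeR). Scd2 was called higher without enhancer KO replicate 3 (0.0280), with a range of 0.0280 to 0.244 over the libraries left out. It was also called higher with unstranded counts (edgeR adjusted p = 0.0356), with no filter on low counts (0.0454) and after trend subtraction (0.0196). Reads that fit Scd1 and Scd2 equally well are not counted for either gene, since only reads aligned to 1 place enter the table.

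Fads2 and Fads1, the desaturases of polyunsaturated fatty acid synthesis, lie 81142 bases apart on chromosome 19 and were both higher. Fads2, which acts first, had 176.2, 173.4 and 159.4 CPM in enhancer KO and 143.3, 138.9 and 145.4 CPM in WT. Fads1 had 270.02, 267.2 and 242.2 CPM in enhancer KO and 228.9, 219.6 and 224.2 CPM in WT. For both genes enhancer KO replicate 3 was the lowest of its group and still above every WT library. Fads2 rose by 19.0% (95% interval 10.9% to 27.6%; edgeR adjusted p = 0.00165) and Fads1 by 15.9% (7.88% to 24.4%; edgeR adjusted p = 0.00513). Elovl6, the elongase of saturated and monounsaturated chains, had 176.0, 176.0 and 175.0 CPM in enhancer KO and 156.7, 165.7 and 150.1 CPM in WT. The enhancer KO libraries were nearly identical and above all WT libraries (0.16 ± 0.0432 SE on the log2 scale; adjusted p = 0.0155 by edgeR). The Elovl6 call ended on leaving out WT replicate 3 (0.0689) or enhancer KO replicate 2 (0.0528), within 0.00835 to 0.0689 over the libraries left out, whereas Scd1, Fads1 and Fads2 kept theirs without each library in turn.

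Fasn, the synthase that assembles palmitate, had 509.8, 489.4 and 456.6 CPM in enhancer KO and 582.2, 525.4 and 572.1 CPM in WT. The highest enhancer KO library was just below the lowest WT library, and Fasn fell by 0.21 on the log2 scale (SE 0.0547; edgeR adjusted p = 0.0132). The call was lost without WT replicate 3 (0.0507; 0.00624 to 0.0507 over the libraries left out). It was also lost with library size alone, at -0.15, and after subtraction of these trends, at -0.048 (edgeR adjusted p = 0.463; 0.00154 to 1 over all alternatives). Library size alone and trend subtraction moved the median of all genes to 0.063 and 0.039. Fasn has a GC content of 57.9%, a spliced length of 10947 bases and the most negative fitted trend of the 36 genes (-0.16). Acly, which splits citrate into acetyl-CoA, and Acaca, which makes malonyl-CoA, had differences of -0.09 ± 0.0396 and -0.06 ± 0.0392 SE on the log2 scale (adjusted p = 0.108 and 0.237 by edgeR). Acly was at 302.7, 292.3 and 304.0 CPM in enhancer KO and 317.9, 320.3 and 318.5 CPM in WT, a small gap without overlap.

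**Figure D2:**
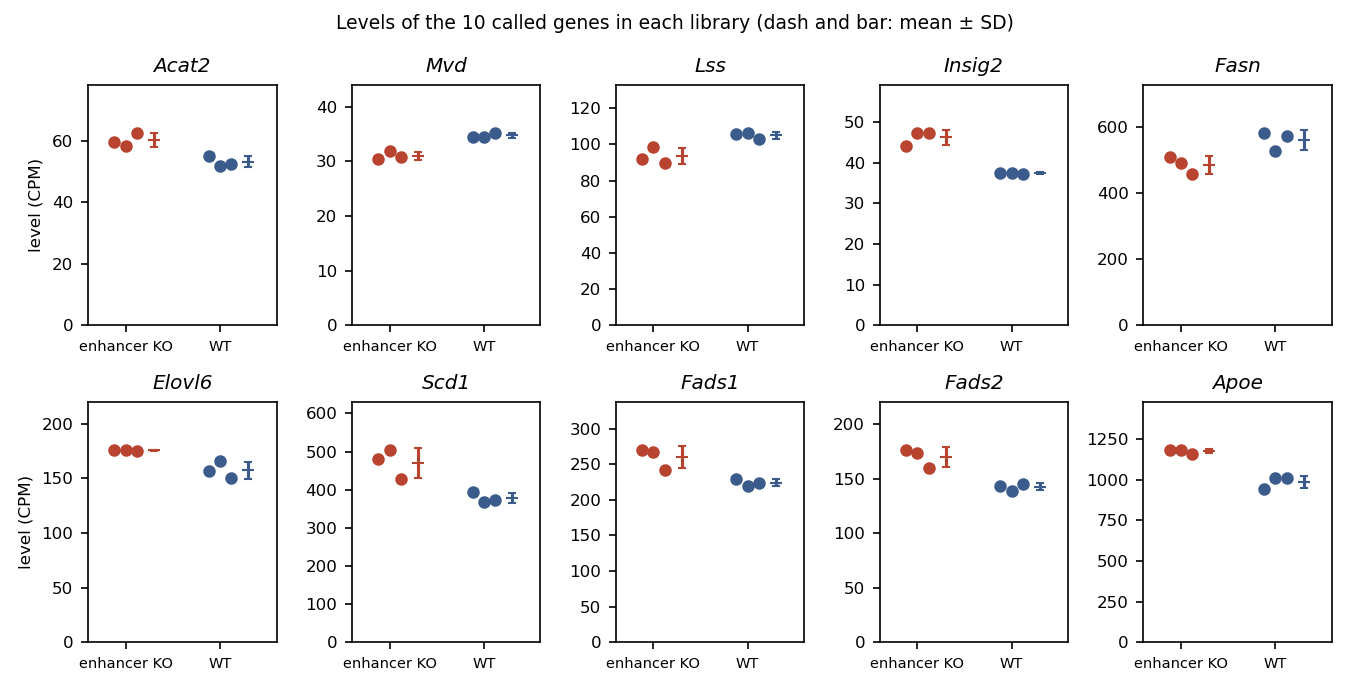
Level in CPM (vertical axis, from 0) of the 10 genes past the threshold, 1 point per library, enhancer KO left and WT right, with the mean and SD of 3 libraries beside them. In each of the 10 genes the points of the groups do not overlap, and the gaps are small against the levels, as for Apoe with 1158 CPM in the lowest enhancer KO library and 1009.9 CPM in the highest WT library.

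Of the genes for transport, export and turnover of cholesterol, Apoe was higher and the other 4 did not pass. That is 20% called, against 31.3% of all genes tested. Apoe, the main lipoprotein of the brain and made chiefly by astrocytes and microglia, had 1182, 1179 and 1158 CPM in enhancer KO and 942.1, 1009.9 and 1006.7 CPM in WT. All enhancer KO libraries were above all WT libraries. Apoe rose by 18.9% (95% interval 11.6% to 26.7%; 0.25 ± 0.0418 SE on the log2 scale; adjusted p = 0.000886 by edgeR), and the call held without each library in turn. Markers of both source cell types were higher too. The 12 Bergmann glia and astrocyte markers summed to 10253, 10172 and 9739 CPM in enhancer KO and 8229, 8470 and 8484 CPM in WT, with 6 of 12 higher. The 10 microglial markers summed to 386, 409 and 340.3 CPM in enhancer KO and 324, 323 and 314 CPM in WT, with 5 of 10 higher. Their part in the Apoe result was not tested. The sum over the 5 transport, export and turnover genes was 1452 ± 15.7 CPM in enhancer KO and 1271 ± 34.5 CPM in WT (SD, n = 3 each), and this difference is that of Apoe, which averaged 1173 CPM in enhancer KO and 986 CPM in WT.

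The exporters that load cholesterol onto apolipoproteins, both targets of the LXR receptors, did not pass. Abca1 had 111.7, 103.4 and 102.02 CPM in enhancer KO and 111.4, 103.8 and 113.7 CPM in WT, which overlap. Abcg1 had 91.9, 94.2 and 90.3 CPM in enhancer KO and 101.4, 96.2 and 100.5 CPM in WT. Its libraries did not overlap, and the difference of -0.11 ± 0.0415 SE on the log2 scale missed the threshold (edgeR adjusted p = 0.0623) except with at least 1 CPM in 3 libraries required (0.0499). Stard4, a carrier that moves sterol between membranes, was at 32.5 ± 1.68 CPM in enhancer KO and 29.9 ± 1.23 CPM in WT (SD, n = 3 each). Its log2 fold change was 0.12 (edgeR adjusted p = 0.147). Stard4 was called higher only after subtraction of the trends over gene structure (0.18, edgeR adjusted p = 0.0381). Cyp46a1, the neuronal hydroxylase that starts the removal of brain cholesterol, was at 48.4 ± 1.44 CPM in enhancer KO and 45.7 ± 3.17 CPM in WT (SD, n = 3 each), with a 95% interval of the change from -3.01% to 15.0%.

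Marker lists of the cell types in the tissue differed between the groups by unequal amounts, and which cells express the 36 genes was not measured. The 20 oligodendrocyte and myelin markers, of the cells that use most cholesterol for membrane, summed to 36125, 39149 and 35628 CPM in enhancer KO and 33811, 36300 and 32669 CPM in WT. These sums overlap, and of the 20 genes 2 were higher and 4 lower. Granule neuron markers were lower for 11 of 12 genes and summed to 1720 to 2153 CPM in enhancer KO and 2818 to 3403 CPM in WT. Purkinje markers were higher for 7 of 12 genes, at 6397 to 6895 CPM in enhancer KO and 4573 to 5588 CPM in WT, and endothelial markers lower for 6 of 10 genes, at 234 to 274 CPM in enhancer KO and 279 to 329 CPM in WT. Choroid plexus and ependymal markers ranged from 825 to 2035 CPM in enhancer KO and from 1193 to 1864 CPM in WT, with 1 of 8 higher. The part of these cell types in the members' values was not tested.

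**Figure D3:**
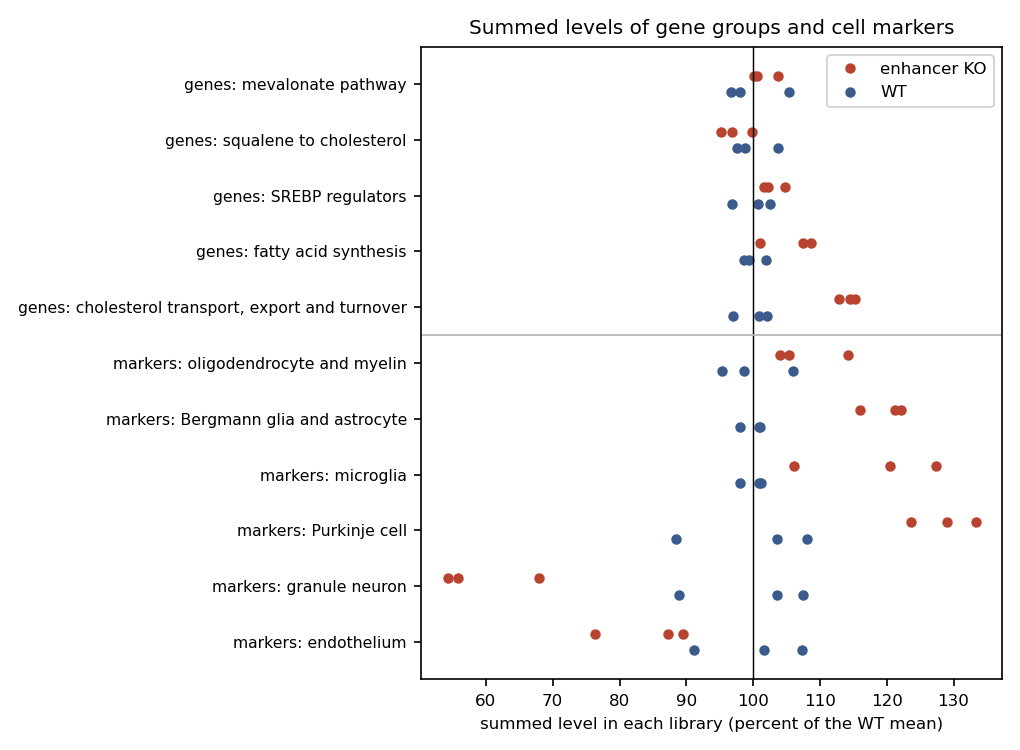
Summed level of each gene group and marker list in each library as a percent of the mean of the WT libraries (horizontal axis), enhancer KO above WT in each row. The cholesterol synthesis rows of the groups overlap, the transport row, in which Apoe makes the difference, is higher in enhancer KO, and the granule neuron row is lowest, with 1720 to 2153 CPM in enhancer KO against 2818 to 3403 CPM in WT.

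Levels of different genes were compared per spliced length, as CPM per kb. Scd2 was the highest at 568 CPM per kb in enhancer KO and 530.4 in WT, followed by Apoe at 549 and 461 and Hmgcs1 at 166 and 165. Scd1 stood well below Scd2, at 96.2 CPM per kb in enhancer KO and 77.3 in WT. Cyp51 was the highest of the squalene to cholesterol genes (49.0 in enhancer KO and 47.4 in WT), and Tm7sf2 was the lowest of all 36 (4.25 and 4.44). The order hardly separates neighbours in the middle, where Fdft1 and Sc5d were both within 20.4 to 21.0 CPM per kb in both groups. Spliced lengths are those of all annotated exons together, and the transcripts in use may be shorter.

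**Figure D4:**
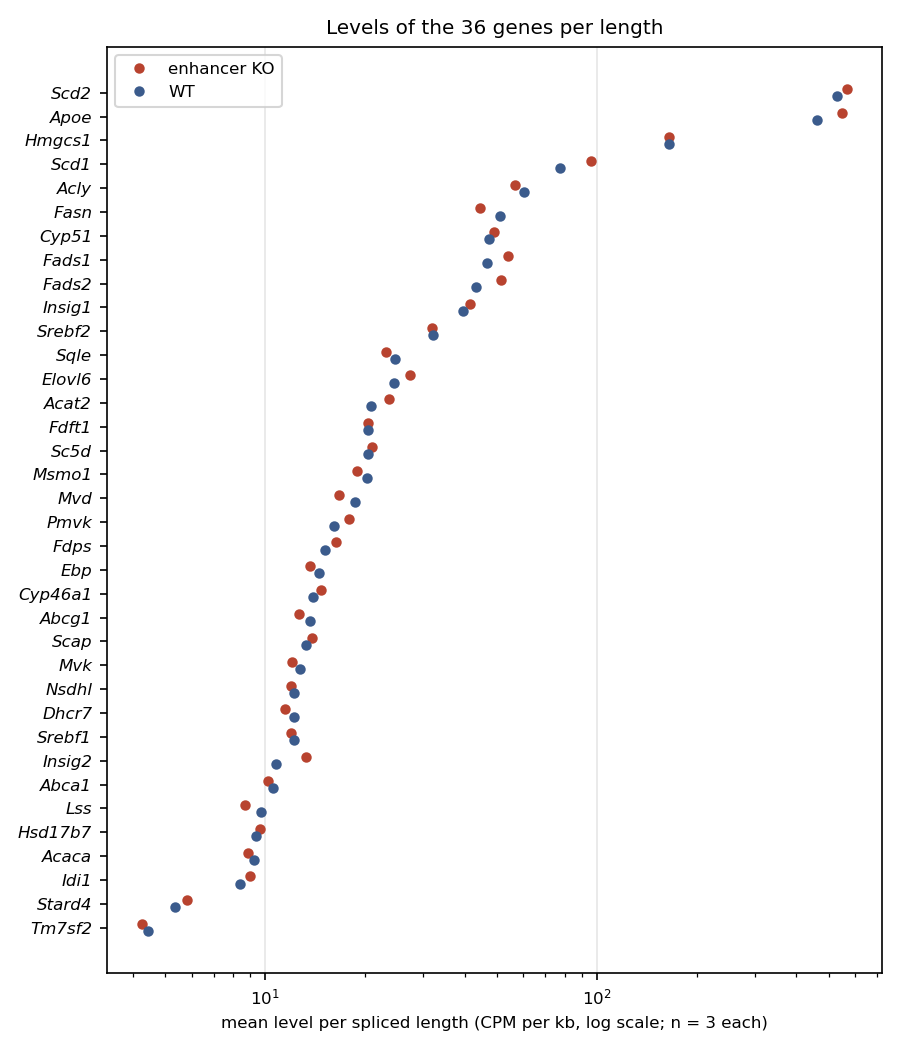
Mean level of each of the 36 genes per kb of spliced length (horizontal axis, log scale, CPM per kb; 3 libraries in each group), ordered by the WT level. Levels span from about 4.25 for Tm7sf2 to 568 for Scd2 in enhancer KO, a range far wider than any difference between the groups.

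Genes of the same pathways outside the 36 were taken from longer lists. Of 14 further sterol and isoprenoid genes, 2 were higher (14.3%) and 3 lower (21.4%), near the 13.4% and 17.9% of all genes tested. Lbr, a sterol reductase that is also a lamin receptor, fell by 0.34, and Syvn1, a ubiquitin ligase of the endoplasmic reticulum, by 0.22 on the log2 scale, the second not called with library size alone or after trend subtraction. Nus1, a subunit of the dolichol synthase, rose by 0.32 on the log2 scale.

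Of 24 tested genes of sterol uptake, trafficking and turnover, 2 were higher (8.33%) and 8 lower (33.3%), against 13.4% and 17.9% of all genes tested, while 1 more, Ch25h, had too few reads to test. Cyp27a1, a sterol hydroxylase, was at 12.3 ± 0.874 CPM in enhancer KO and 18.2 ± 2.14 CPM in WT (SD, n = 3 each; -0.56 ± 0.0936 SE on the log2 scale; adjusted p = 0.000895 by edgeR). Hsd3b7, a dehydrogenase of bile acid synthesis, had a log2 fold change of -0.52 ± 0.109 (SE), whereas the hydroxylase genes Cyp7b1 and Cyp39a1 did not pass, at -0.022 and 0.044 (a pair named after their values were seen). The transporter gene Abca7 fell by 0.44 and Abca2 by 0.20 on the log2 scale, and Abca2 was not called with library size alone or after trend subtraction. Npc2, which hands cholesterol on inside lysosomes, rose by 0.22, and Lrpap1, a chaperone of lipoprotein receptors, by 0.19 on the log2 scale.

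Of 28 other fatty acid genes, 8 were higher (28.6%) and 4 lower (14.3%), against 13.4% and 17.9% of all genes tested. Me1, which supplies NADPH for fatty acid synthesis, had 108.7, 113.3 and 114.2 CPM in enhancer KO and 90.4, 92.6 and 97.4 CPM in WT. It rose by 0.26 on the log2 scale (edgeR adjusted p = 0.000886), and Mid1ip1, an activator of acetyl-CoA carboxylase, rose by 0.24. Acss2, which makes acetyl-CoA from acetate, had 76.8, 76.9 and 76.8 CPM in enhancer KO and 89.9, 95.4 and 93.3 CPM in WT. It fell by 0.27 on the log2 scale (edgeR adjusted p = 0.000458), and the ceramide synthase gene Cers2 by 0.23, although not with library size alone. Hacd2, a dehydratase of the elongation cycle, rose by 0.19 and Fabp5, a fatty acid binding protein, by 0.23. Of the other elongation genes in this list, Hsd17b12 rose by 0.15 and Elovl1 fell by 0.18 on the log2 scale. Elovl2, Elovl4, Elovl5, Elovl7, Hacd1, Hacd3 and Tecr did not pass. These elongation genes were named after their values were seen. Hacd2 lost its call without enhancer KO replicate 2 (0.0607; 0.0194 to 0.0607 over the libraries left out), and Fabp5 without any 1 of WT 2, WT 3, enhancer KO 2 and enhancer KO 3 (0.0503 to 0.0695, within 0.00109 to 0.0695).

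The 10 calls among the 36 genes differed in how well they held. Insig2, Fads2 and Apoe stayed called under every alternative tried except the minimum fold of 1.2. Scd1 and Fads1 lost theirs there and with WT replicate 1 as the only WT library, where edgeR's adjusted p was 0.0827 and 0.0552. Without WT replicate 1, where each library left had Ddx3y reads, the same 10 genes were called. With RLE scaling the same 10 genes were called. With library size alone, which moved the median of all genes to 0.063 on the log2 scale, Mvd, Lss and Fasn kept their sign and did not pass, while the 7 higher genes all did.

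**Figure D5:**
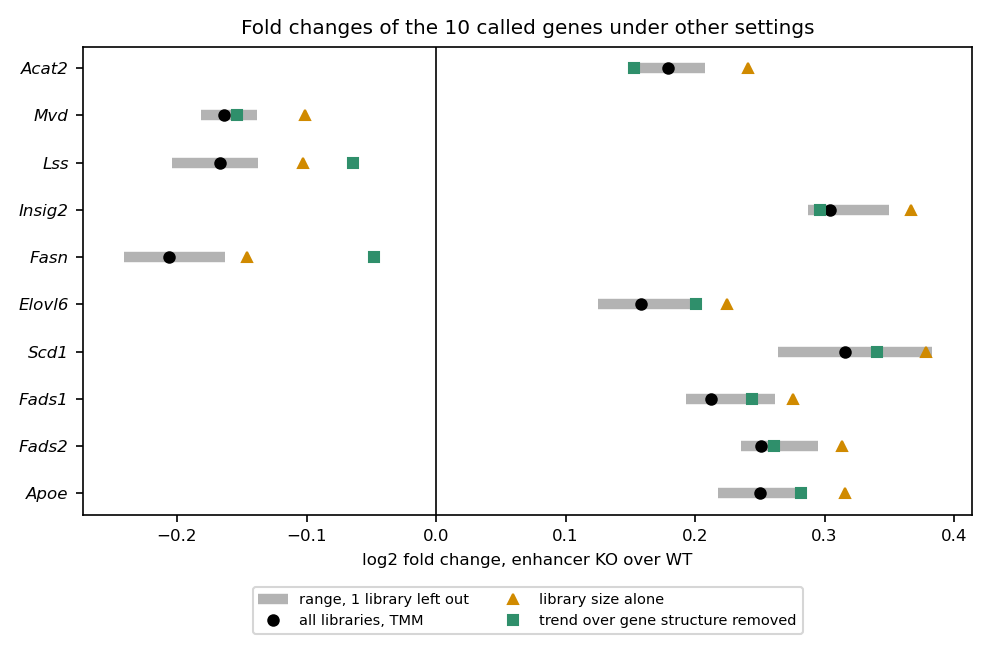
Log2 fold change, enhancer KO over WT (horizontal axis), of the 10 called genes: all libraries with TMM (circle), library size alone (triangle), smooth trends over gene structure subtracted (square) and the range with 1 library left out (bar). Fasn sits at -0.21, -0.15 and -0.048 under these 3 settings, while Fads2 stays at 0.25 to 0.31.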

How the data were processed

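Read counts per gene were deposited by the authors as STAR tables for 6 libraries, with no normalization; per the submitters' processing notes, reads were trimmed with Trimmomatic and aligned with STAR to mm10. Versions, annotation and settings: not given in the sources used here. Counts came from the column of the strand that held the reads (1.62% to 1.88% on the other strand), and the 4 rows that name no gene, among them the reads outside exons (16.8% to 34.1% of all reads), stayed out of library sizes. Genes were filtered by filterByExpr, scaled by TMM and tested by edgeR 4.0.16 (quasi-likelihood, robust, two-sided) in R 4.3.3, and p-values were adjusted by Benjamini-Hochberg across the 15846 genes tested. CPM are relative to TMM-scaled library sizes; the SE follows from the F statistic. Positions and lengths came from GENCODE mouse M21 (GRCm38), where 23334 symbols matched directly and 649 by an older symbol. Trends over GC content, spliced length and intron length were fitted with mgcv 1.9.3, and alternatives used DESeq2 1.42.0 and limma 3.58.1. The fit was also run on counts simulated from its own means and dispersions, which checks the code and not how well the model suits these libraries. The 36 genes are all named; of each other pathway list, up to 6 called genes with the smallest p are, except 2 of the further sterol genes, which are not reported here. Members, lists and alternatives were chosen with earlier results of these data known.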

Additional observations from a re-analysis of the deposited data

How the results depend on the processing

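With a minimum fold of 1.2, 83 genes were called higher and 908 lower over all genes, and 0 members in either direction, among them 0 cholesterol synthesis and 0 fatty acid synthesis genes (0 members at an unadjusted p under 0.05). With library size alone, 1689 genes were lower, and 0 members were lower, so 0 cholesterol synthesis and 0 fatty acid synthesis genes were (11 members at an unadjusted p under 0.05 in either direction). After subtraction of trends over gene structure, 2927 genes were higher and 2163 lower over all genes, against 2120 and 2844 without it. The median of all genes moved to 0.039 on the log2 scale. In this setting 10 members were higher and 1 was lower. Among them 1 cholesterol synthesis gene was higher and 1 lower, and 5 fatty acid synthesis genes were higher and 0 lower. Scap, Scd2 and Stard4 were newly called, and Lss and Fasn lost their calls. Without WT replicates 2 and 3, where WT replicate 1 alone stands for WT and is taken to spread as widely as the enhancer KO group, 1640 genes were lower, 4 members higher and 1 lower, with 0 cholesterol synthesis genes in either direction and 2 fatty acid synthesis genes higher. The cholesterol synthesis genes lower were 1 with no filter on low counts, 1 with DESeq2 and 1 with unstranded counts, where 3 were higher. The labels state no pairing of the libraries. Deviations from the group means correlated at 0.053, -0.039 and -0.080 between same-numbered libraries, and 3 libraries a group are too few to exclude a pairing. With a replicate block 1 cholesterol synthesis gene was lower, Mvd having lost its call. Leaving out 1 library at a time gave 1420 to 2214 genes higher and 2181 to 2710 lower, 5 to 7 members higher and 1 to 3 lower, 0 to 1 cholesterol synthesis genes higher and 0 to 2 lower, 3 to 5 fatty acid synthesis genes higher and 0 to 1 lower. The log2 fold change of Atoh7 then lay between -1.50 and -1.34 and the difference in reads outside exons between -15.7 and -14.1 percentage points. No member changed sign with a call under any alternative. With 3 libraries a group, and as few as 415 reads of a member in a library, both counting error and the small number of libraries limit the precision.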

Other observations

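Ratios of reads within a library do not depend on scaling between libraries. The pairs below were chosen after the values were seen, and 3 libraries against 3 allow no exact permutation p below 0.1, which each pair reached. Insig2 over Insig1 was 0.362, 0.371 and 0.352 in enhancer KO and 0.306, 0.305 and 0.312 in WT. Scd1 over Fasn was 0.943, 1.03 and 0.935 in enhancer KO and 0.676, 0.701 and 0.652 in WT. In CPM per kb, Scd1 was above Fasn in both groups, at 96.2 against 44.3 in enhancer KO and 77.3 against 51.1 in WT. Ratios to Fasn are not corrected for the trends over gene structure, fitted at -0.16 for Fasn and -0.025 for Scd1. Fads2 over Fasn was 0.346, 0.354 and 0.349 in enhancer KO and 0.246, 0.265 and 0.254 in WT, and Scd1 over Scd2 was 0.151, 0.160 and 0.144 in enhancer KO and 0.134, 0.126 and 0.132 in WT. Fads1 over Fads2 moved least, at 1.53 ± 0.0107 in enhancer KO and 1.57 ± 0.0280 in WT (SD, n = 3 each).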
